A study of Homo sapiens with 18 samples.

Results

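Gene expression under cisplatin was compared between SKOV-3 cells that overexpressed the phosphomimetic PEA-15 mutant (SKOV-3-DD) and cells transfected with the empty vector (SKOV-3-EV). SKOV-3 is a human ovarian carcinoma cell line. The members of this comparison are the 3 arrays of each of these groups after exposure to 15 µM cisplatin for 24 h, so 6 of the 18 arrays of the series, and they were chosen by the transfection and treatment in the sample titles. The other groups of 3 arrays each are untreated SKOV-3-EV and SKOV-3-DD cells and both states of cells with the non-phosphorylatable mutant PEA-15AA (SKOV-3-AA). All cells were transfected transiently with pcDNA3 plasmids in liposomes, and cisplatin or medium was added 24 h later. The labels and methods used here give no share of cells that took up a plasmid, and in RNA from a whole culture fewer cells of a kind and less RNA per cell cannot be told apart. Nothing in the labels or methods says that the replicates came from separate cultures, so a p describes the spread among the arrays alone, which may be technical.

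PEA-15 is a small death effector domain protein that binds ERK1/2 and keeps it in the cytoplasm. Once its serine residues are phosphorylated, it releases ERK1/2 and can bind FADD, the adaptor of death receptors. The aspartate residues of PEA-15DD mimic the phosphorylated form. Cisplatin crosslinks DNA, which blocks replication and transcription and engages the repair of crosslinks, translesion synthesis and apoptosis.

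Each array gave 1 log2 signal per probe set on the Clariom S platform, a gene-level expression array. After control features were left out, 21448 of 24351 features were compared, of which 17709 carried a gene symbol and 3739 did not. The median log2 signal of the 6 arrays lay between 6.33 and 6.44. Negative control features had medians of 3.73 to 3.92 and 90th percentiles of 5.87 to 6.38 on these arrays, and signals in that range may be background. Of 10 measured epithelial and SKOV-3 markers 7 exceeded the 90th percentile of the negative controls on all 6 arrays, among them the keratins KRT8 and KRT18 and the adhesion molecule EPCAM. The same held for COL1A1 and COL1A2 of 9 fibroblast markers, for PTPRC, CD68, NKG7 and CD79A of 9 immune markers and for 0 of 8 endothelial markers. The log2 of the summed marker signal ranged from 11.23 to 11.78 in SKOV-3-EV and from 11.65 to 11.89 in SKOV-3-DD for fibroblasts, from 12.63 to 12.76 and from 12.33 to 12.73 for immune cells, and from 7.73 to 8.15 and from 7.79 to 7.87 for endothelial cells.

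PEA15 itself was examined first. Its log2 signals were 10.95, 11.07 and 11.51 in the SKOV-3-EV arrays and 10.53, 10.73 and 11.63 in the SKOV-3-DD arrays under cisplatin, so the groups overlapped and the difference was -0.21 ± 0.43 (log2, SE). In untreated cells the signals were 10.31, 10.06 and 10.39 with the vector and 9.59, 10.48 and 12.21 with PEA-15DD. Replicate 3 was the highest of its group in both states of SKOV-3-DD cells, and also in both states of SKOV-3-EV and SKOV-3-AA cells. The sources used here do not say whether the probes of this set lie within the sequence carried by the plasmid, so these values check neither the transfection nor its labels.

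Few genes differed between SKOV-3-DD and SKOV-3-EV cells under cisplatin. At the thresholds of the study, an unadjusted p under 0.05 and a difference of at least 2-fold, 9 of 21448 probe sets passed (0.042%), of which 4 were higher (0.0186%) and 5 lower (0.0233%) in SKOV-3-DD cells. None passed a Benjamini-Hochberg adjusted p under 0.05 in the limma fit over all 18 arrays, where the lowest adjusted p was 0.277. At an unadjusted p under 0.05 there were 1670 probe sets (7.79%), with 749 higher (3.49%) and 921 lower (4.29%). This fit shares 1 estimate of the spread among all groups. The median SD was 0.245 (log2) in SKOV-3-DD cells under cisplatin and 0.129 to 0.202 in the other groups. When only the groups compared were fitted, with fewer arrays to estimate the spread, 767 of 21448 probe sets had an unadjusted p under 0.05. Of these, 299 were higher and 468 lower. Quantile normalization moved the higher share of the probe sets past the thresholds of the study from 44.4% to 69.2%, with 9 higher and 4 lower.

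The same comparison in untreated cells gave 7 probe sets past the thresholds of the study (0.0326%) and 1173 at an unadjusted p under 0.05 (5.47%). For PEA-15AA against the vector under cisplatin, which shares the vector arrays, 30 passed the thresholds of the study (0.14%) and 2671 had an unadjusted p under 0.05 (12.5%). The adjusted p stayed above 0.05 for every probe set in both of these comparisons.

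FRRS1, which encodes a ferric chelate reductase, had the highest log2 difference of all probe sets. Its log2 signals were 4.27, 5.06 and 5.52 in the SKOV-3-EV arrays and 6.40, 5.77 and 6.24 in the SKOV-3-DD arrays. The SKOV-3-DD mean of 6.14 lay within the range of the 90th percentiles of the negative controls, 5.87 to 6.38. All 3 SKOV-3-DD arrays lay above all 3 SKOV-3-EV arrays, with a difference of 1.19 ± 0.26 (log2, SE; adjusted p = 0.277), while in untreated cells it was 0.03.

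RCAN3, a regulator of the phosphatase calcineurin, measured 5.76, 5.57 and 6.64 with the vector and 6.91, 6.40 and 7.86 with PEA-15DD. Here the groups overlapped through replicate 2 of SKOV-3-DD and replicate 3 of SKOV-3-EV, and the difference was 1.07 ± 0.34 (log2, SE; adjusted p = 0.455). BCL2L15, a member of the BCL2 family of apoptosis regulators, lay at 4.09, 4.08 and 4.61 with the vector and at 4.55, 5.74 and 5.55 with PEA-15DD. Replicate 1 of SKOV-3-DD lay among the vector arrays, and all values were below the 90th percentile of the negative controls.

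ENG, which encodes endoglin, a co-receptor for ligands of the TGF-β family, was the lowest. Its log2 signals were 7.59, 6.67 and 6.93 in SKOV-3-EV and 6.50, 6.27 and 5.06 in SKOV-3-DD cells, a difference of -1.12 ± 0.29 (log2, SE; adjusted p = 0.35). The groups did not overlap, and replicate 3 of SKOV-3-DD was farthest from the vector arrays. KRTAP25-1, a hair keratin-associated protein gene, was at 4.93, 4.15 and 4.74 against 3.32, 3.56 and 3.79, close to the median of the negative controls. The other 4 probe sets past the thresholds carried no symbol, and their log2 differences were 1.18, -1.03, -1.02 and -1.01. Against the same vector arrays, SKOV-3-AA cells under cisplatin differed by 0.51 for FRRS1, 1.06 for RCAN3 and 0.87 for BCL2L15. They differed by -0.45 for ENG and -0.51 for KRTAP25-1. For the 4 probe sets without a symbol the SKOV-3-AA differences were 1.44, -0.84, -0.91 and -0.73, in the same order. The cutoff divides near neighbours, since a probe set at -1.01 and BCL2L15 at 1.02 were just inside it and SAMD4A at -0.998 and SMAD6 at 0.98 were just outside.

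**Figure D1:**
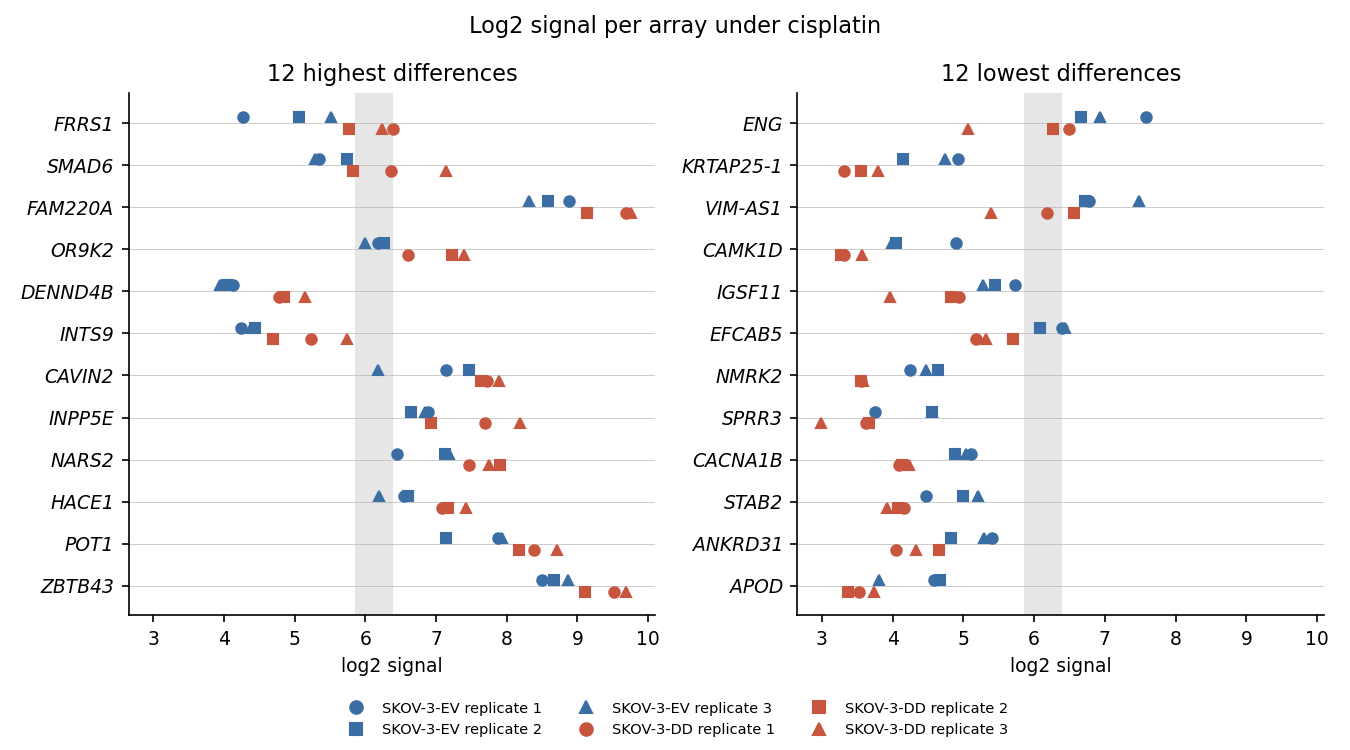
The log2 signal (x axis) of the 12 genes with the highest and the 12 with the lowest log2 difference between SKOV-3-DD and SKOV-3-EV cells under cisplatin is plotted for each array, with blue symbols for SKOV-3-EV, red symbols for SKOV-3-DD and the shape giving the replicate. The genes were chosen for an unadjusted p under 0.05 and no overlap between groups, and the grey band spans the 90th percentiles of the negative controls, from 5.87 to 6.38.

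Among the genes with a symbol, the 12 highest and 12 lowest differences were taken from those with an unadjusted p under 0.05 and no overlap between the groups, a condition met by 933 probe sets (4.35%). Without the p, 1731 probe sets did not overlap (8.07%), with SKOV-3-DD higher in 745 (3.47%) and lower in 986 (4.6%). The 12 higher genes have unlike functions. They comprised, besides FRRS1, the inhibitory SMAD of BMP signalling SMAD6, the telomere protein POT1, the ubiquitin ligase HACE1, the mitochondrial asparaginyl-tRNA synthetase NARS2, the caveola protein CAVIN2, the ciliary inositol phosphatase INPP5E, the Integrator subunit INTS9, the Rab activator DENND4B, the zinc finger gene ZBTB43, the olfactory receptor gene OR9K2 and FAM220A. The means of 9 of these 12 genes in SKOV-3-DD cells exceeded the 90th percentile of the negative controls. In all 12, the mean of SKOV-3-AA cells under cisplatin was also higher than that of the same vector arrays. The SKOV-3-AA difference was larger than the SKOV-3-DD difference in SMAD6 (1.18) and CAVIN2 (0.90) and smaller in the others.

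SMAD6 had log2 signals of 5.35, 5.75 and 5.29 with the vector and of 6.37, 5.82 and 7.15 with PEA-15DD, and its replicate 2 lay only just above the vector arrays. POT1 was at 7.88, 7.14 and 7.94 against 8.39, 8.18 and 8.72, a difference of 0.78 ± 0.20 (log2, SE). HACE1 was at 6.55, 6.60 and 6.19 against 7.09, 7.18 and 7.43, and here the SKOV-3-DD arrays were as close to each other as the vector arrays were. ZBTB43 and FAM220A had the highest signals of the 12, with means of 9.44 ± 0.30 and 9.53 ± 0.34 (log2, SD, n = 3) in SKOV-3-DD and of 8.67 ± 0.18 and 8.59 ± 0.28 in SKOV-3-EV cells. NARS2 differed by 0.79 ± 0.18 (log2, SE) and CAVIN2 by 0.82 ± 0.28.

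Of the 12 lower genes, only ENG and VIM-AS1 had a mean in SKOV-3-EV cells above the 90th percentile of the negative controls, measured as its highest value over the 6 arrays. VIM-AS1, an antisense RNA of the vimentin locus, had log2 signals of 6.77, 6.72 and 7.48 with the vector and of 6.18, 6.56 and 5.39 with PEA-15DD. The other 10 were KRTAP25-1, the calcium/calmodulin-dependent kinase CAMK1D, EFCAB5, the adhesion protein IGSF11, the nicotinamide riboside kinase NMRK2, the cornified envelope protein SPRR3, the N-type calcium channel subunit CACNA1B, the hyaluronan scavenger receptor STAB2, ANKRD31 and the lipocalin APOD. NMRK2 was at 4.24, 4.64 and 4.47 in the vector arrays and 3.56, 3.55 and 3.58 in the SKOV-3-DD arrays, which lay below the median of the negative controls. EFCAB5 had the highest signals of these 10 genes, with means of 6.31 ± 0.19 in SKOV-3-EV and 5.40 ± 0.27 in SKOV-3-DD cells (log2, SD, n = 3). In all 12 lower genes the mean of SKOV-3-AA cells under cisplatin was also below that of the vector arrays. The SKOV-3-AA difference was larger than the SKOV-3-DD difference in EFCAB5 and CACNA1B (-0.93 each) and smaller in the others.

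By the lowest p rather than the size of the difference, ACSS1 and ANKRD28 led the named genes other than KRTAP25-1 and were picked out after their values were seen. ACSS1, a mitochondrial acetyl-CoA synthetase, was at 7.56, 7.62 and 7.35 against 6.86, 6.83 and 6.63, a difference of -0.74 ± 0.13 (log2, SE; adjusted p = 0.277). ANKRD28, a subunit of protein phosphatase complexes, was at 7.35, 7.52 and 7.13 against 7.91, 8.13 and 8.10, a difference of 0.71 ± 0.14. Neither gene overlapped between groups, and neither reached 2-fold.

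Some genes that the study takes up from other comparisons of these cells were looked at here as well. EGR1, an ERK-induced transcription factor gene, had log2 signals of 13.82, 13.49 and 13.71 with the vector and of 13.57, 13.09 and 13.49 with PEA-15DD, a difference of -0.29 ± 0.23 (log2, SE). In untreated cells its signals were 11.98, 11.47 and 11.62 against 10.54, 10.30 and 10.46, a difference of -1.25. The difference between these effects was 0.96, with an unadjusted p of 0.00961 and an adjusted p of 0.53 in limma. MAVS, the mitochondrial adaptor of RNA sensing, was at 9.57, 9.05 and 9.71 against 9.99, 9.82 and 10.01 under cisplatin, without overlap (0.50 ± 0.18, log2, SE; adjusted p = 0.532). NFE2L2, the transcription factor NRF2, was at 12.02, 12.16 and 12.07 against 12.45, 11.84 and 12.69, so that replicate 2 of SKOV-3-DD lay below and the other two above all vector arrays. TIPARP, NAV3, PRKG1 and GPRC5C had log2 differences of 0.16, -0.16, -0.14 and -0.10, with overlap, and NAV3 and PRKG1 were near the level of the negative controls.

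No probe set had a difference of effects between cisplatin-treated and untreated cells at an adjusted p under 0.05 in limma, where the lowest was 0.0648, and 1628 had an unadjusted p under 0.05 (7.59%). Of these, 102 differed by at least 2-fold (0.476%), 37 upwards and 65 downwards under cisplatin. SERPINB5, the gene of the serpin maspin, had the lowest p and is named for that reason. Under cisplatin its log2 signals were 3.856, 3.967 and 3.595 with the vector and 4.68, 4.50 and 4.30 with PEA-15DD. In untreated cells they were 5.19, 5.01 and 5.03 against 4.65, 4.202 and 4.24. The arrays did not overlap in either state, the difference of effects was 1.40 ± 0.21 (log2, SE), and all of these signals were below the 90th percentile of the negative controls.

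The 3 SKOV-3-DD arrays under cisplatin differed more among themselves than the arrays of any other group. The root mean square difference between replicates 2 and 3 over all probe sets was 0.582 (log2), against 0.415 between replicates 1 and 2 and 0.427 between replicates 1 and 3. The pairs of SKOV-3-EV arrays differed by 0.335 to 0.412 and those of SKOV-3-AA arrays by 0.307 to 0.321. Replicate 1 was closer to the SKOV-3-AA arrays, at 0.328 to 0.336, and to replicates 1 and 2 of SKOV-3-EV, at 0.352 and 0.365, than to either other SKOV-3-DD array.

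Within SKOV-3-DD cells under cisplatin 2284 probe sets (10.7%) spanned at least 2-fold over the 3 arrays, against 972 in SKOV-3-EV and 377 in SKOV-3-AA cells under cisplatin and 97 to 613 in the untreated groups. In 1112 of the 2284 replicate 2 was the lowest and replicate 3 the highest, and in 580 the order was the reverse. In a principal component analysis of the 9 treated arrays, component 1 (31.3% of the variance) placed these arrays at its opposite ends, with scores of -0.284 and 0.268, while replicate 1 had a score of -0.0048. The second component, with 14.9%, set replicate 3 of SKOV-3-EV apart with a score of 0.282.

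**Figure D2:**
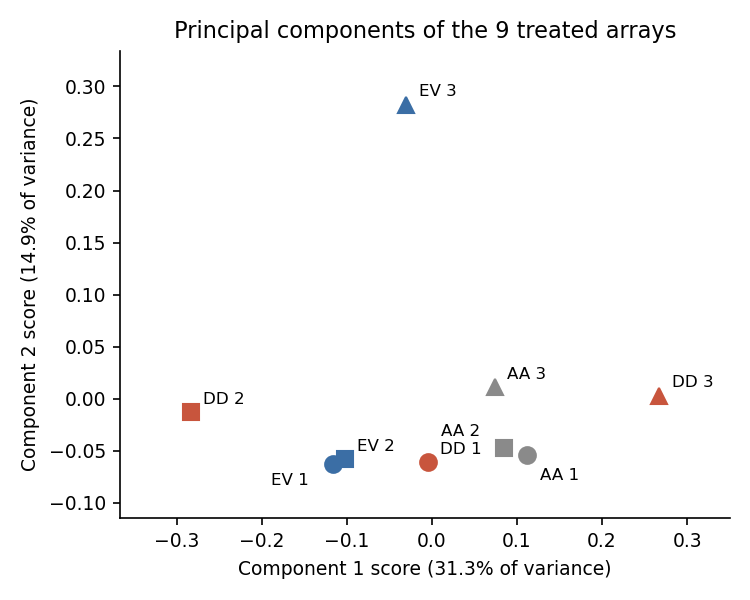
Scores of the 9 cisplatin-treated arrays on the first (x axis, 31.3% of the variance) and second (y axis, 14.9%) principal components over 21448 probe sets, with SKOV-3-EV in blue, SKOV-3-AA in grey and SKOV-3-DD in red. Replicates 2 and 3 of SKOV-3-DD are at opposite ends of the first component, and replicate 3 of SKOV-3-EV is alone at the top of the second.

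The spike-in controls of the arrays moved with the same order. The mean log2 signal of the 4 hybridization spikes was 10.83, 11.10 and 10.37 in SKOV-3-DD replicates 1 to 3, compared with 10.98 to 11.06 in SKOV-3-EV and 10.44 to 10.61 in SKOV-3-AA cells, and that of the 4 poly-A spikes was 8.76, 9.19 and 8.32 in SKOV-3-DD. Their part in the differences between these arrays was not tested. Weights that limma estimated for the arrays were 1.95, 0.312 and 0.30 for SKOV-3-DD replicates 1 to 3 and 0.977, 0.98 and 0.437 for SKOV-3-EV.

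Genes with the largest SD over the SKOV-3-DD arrays show this spread. MMP7, a secreted metalloproteinase, had log2 signals of 7.58, 5.28 and 8.84 in SKOV-3-DD and of 7.40, 7.32 and 9.27 in SKOV-3-EV cells. H2BC14, a replication-dependent histone gene, was at 9.43, 7.55 and 10.30 against 8.47, 8.10 and 9.64, and SIN3A, a scaffold of a histone deacetylase complex, at 9.09, 7.46 and 10.02 against 8.57, 8.15 and 8.78. In these genes replicate 2 was the lowest and replicate 3 the highest of the SKOV-3-DD arrays, as it was in TRIM47, OAS1, ASAP3, ARHGAP21 and XPNPEP3. TMEM63C and CLDND2 were lowest in replicate 3, and CLDND2 had signals of 6.87, 8.88 and 6.53. For these 10 genes the log2 difference from the vector lay between -0.76 and 0.58, with SDs of 1.25 to 1.81 over the SKOV-3-DD arrays.

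The count of probe sets past the thresholds of the study was 9 with all arrays, and 26 (0.121%), 58 (0.27%) and 25 (0.117%) when SKOV-3-DD replicate 1, 2 or 3 was left out. It was 18 (0.0839%), 30 (0.14%) and 20 (0.0932%) without SKOV-3-EV replicate 1, 2 or 3. Each of these fits has 2 arrays in 1 group. Of the 9 probe sets, 7, 6 and 4 stayed past the thresholds without SKOV-3-DD replicates 1 to 3, and 4, 5 and 5 without those of SKOV-3-EV. Without replicate 2 of SKOV-3-DD 39 of the 58 were higher, and 3259 probe sets (15.2%) had an unadjusted p under 0.05, compared with 1597 (7.45%) and 1845 (8.6%) without replicate 1 or 3.

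**Figure D3:**
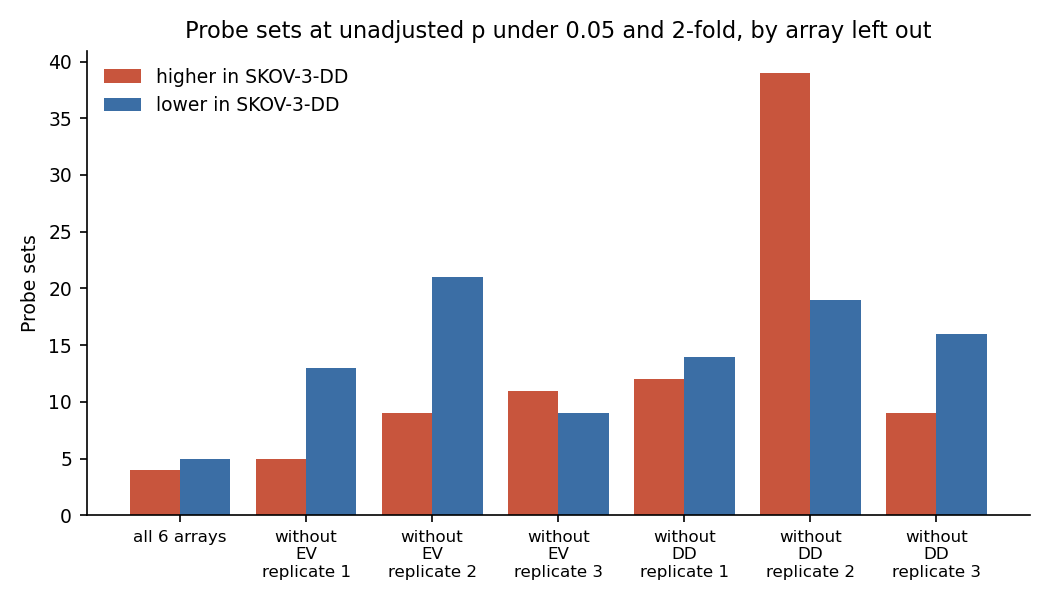
The number of probe sets (y axis) at an unadjusted p under 0.05 and a difference of at least 2-fold is shown with all 6 arrays and with each array left out, in red where SKOV-3-DD cells were higher and in blue where they were lower. With all arrays there were 4 higher and 5 lower, and without SKOV-3-DD replicate 2 there were 39 and 19.

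Leaving out replicate 2 brought 7 genes (0.0326%) under an adjusted p of 0.05, all higher in SKOV-3-DD cells, with an adjusted p of 0.0471 each. These were NECTIN1, a cell adhesion molecule, LPCAT1, a lysophosphatidylcholine acyltransferase, GCNT2, a glycan-branching enzyme, ZDHHC23, a palmitoyltransferase, and FBXO8, INPP5E and INTS9. NECTIN1 had log2 signals of 8.26, 7.28 and 7.86 with the vector and of 9.14, 7.96 and 9.19 with PEA-15DD, so that replicate 2 lay among the vector arrays. LPCAT1 was at 7.02, 6.99 and 6.82 against 7.76, 6.60 and 8.14, and GCNT2 at 5.36, 5.39 and 5.66 against 6.43, 4.93 and 6.94. In both genes replicate 2 was below all vector arrays and the other replicates were above them. With all arrays the log2 differences of NECTIN1, LPCAT1 and GCNT2 were 0.96, 0.56 and 0.63, and without replicate 2 they were 1.36, 1.01 and 1.22. The corresponding differences of SKOV-3-AA from the same vector arrays were 1.23, 1.04 and 1.34. For FBXO8, INPP5E, INTS9 and ZDHHC23 the SKOV-3-DD differences without replicate 2 were 0.88, 1.15, 1.14 and 1.07. Those of SKOV-3-AA were smaller, at 0.42, 0.65, 0.78 and 0.59.

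Leaving out replicate 3 gave 3 genes (0.014%) at an adjusted p under 0.05, all lower in SKOV-3-DD cells. MAP3K5, the stress-activated kinase ASK1, had log2 signals of 6.44, 6.31 and 6.34 with the vector and of 4.96, 4.94 and 6.50 with PEA-15DD. SAMD4A, a translational repressor, was at 10.48, 11.27 and 10.66 against 9.45, 8.91 and 11.05, and EFCAB13 at 6.88, 7.35 and 7.55 against 6.05, 6.07 and 7.08. In all of them replicate 3 lay within or above the vector range and the other replicates below it. Without replicate 3 the log2 differences were -1.42, -1.62 and -1.20, with adjusted p of 0.00113, 0.0334 and 0.0334 in limma, and with all arrays -0.90, -0.998 and -0.86. Leaving out replicate 1 brought no probe set under an adjusted p of 0.05, and the lowest was 0.137.

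Gene lists of pathways known for cisplatin and PEA-15 were described by their members. Over all probe sets the median log2 difference of SKOV-3-DD from SKOV-3-EV was 0.00, and for each SKOV-3-DD array the median difference from the SKOV-3-EV mean was 0.00, -0.02 and 0.01. Of 27 measured ERK-responsive genes 1 was higher at an unadjusted p under 0.05, against 3.49% of all probe sets, and the median difference was 0.07, with higher means in 15 members and lower means in 12. The gene higher at that p was EGR3, an early growth response gene, with log2 signals of 3.996, 4.14 and 4.19 against 4.53, 4.80 and 4.37, within the level of the negative controls. The ERK phosphatase genes DUSP4 and DUSP6 differed by 0.18 and 0.12 and the feedback inhibitor gene SPRY4 by 0.18, while its relative SPRY1 differed by -0.45 and FOSB, a subunit of the AP-1 factor, by -0.35. Of 15 measured partners of PEA-15 the kinase gene CAMK2D was lower at that p (-0.38), against 4.29% of all probe sets, and FADD, CFLAR and the ERK1 gene MAPK3 differed by 0.14, 0.18 and 0.03.

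Genes of translesion synthesis, the bypass of DNA lesions by specialised polymerases, had 3 of 13 measured members higher at an unadjusted p under 0.05 (3.49% of all probe sets) and none lower. POLH, the polymerase that bypasses cisplatin adducts, was at 8.77, 8.35 and 8.80 with the vector and at 9.02, 8.80 and 9.25 with PEA-15DD. PRIMPOL, which restarts DNA synthesis past lesions, was at 6.68, 6.30 and 6.31 against 7.09, 6.53 and 6.91, and the ubiquitin ligase gene SHPRH at 7.59, 7.60 and 7.62 against 7.86, 7.79 and 8.17. SHPRH and POLH did not overlap between the groups, and in PRIMPOL replicate 2 lay among the vector arrays. The adjusted p were 0.59, 0.597 and 0.603. The median of the list was 0.12 with all arrays and -0.06 without SKOV-3-DD replicate 3.

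Of 36 measured G1/S and replication genes 3 were higher at that p and none lower (3.49% and 4.29% of all probe sets), with a median difference of 0.11. MCM6, a subunit of the replicative helicase, was at 8.04, 8.21 and 8.09 against 8.47, 8.09 and 9.23, where replicate 2 lay among the vector arrays. CDT1, a licensing factor of replication origins, differed by 0.38 ± 0.16 (log2, SE), and GINS2, of the same helicase complex, by 0.29 ± 0.12. Without replicate 2 11 of 36 members were higher at an unadjusted p under 0.05 (8.66% of all probe sets), among them MCM10 and CDC25A, the gene of a phosphatase that activates cyclin-dependent kinases, with differences of 0.68 and 0.49. Of 34 G2/M genes none passed with all arrays, while 10 were higher without replicate 2, such as CCNB2, the gene of cyclin B2, which was at 11.43, 11.39 and 11.46 against 11.91, 11.22 and 11.97. Without replicate 3 none of the 34 G2/M genes was higher at that p and 1 was lower, with a median of -0.02, and of the 36 G1/S genes 1 was higher and 2 were lower, with a median of 0.02 (3.73% of all probe sets higher and 4.87% lower). In 30 of the 34 G2/M genes replicate 3 lay above replicate 2, against 11075 of 21448 probe sets.

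Genes of Fanconi anaemia and homologous recombination, which repair crosslinks and double-strand breaks, had list medians that differed from the vector mean by 0.14, -0.26 and 0.36 in SKOV-3-DD replicates 1 to 3, and replicate 3 exceeded replicate 2 in 24 of the 25 genes measured. Among apoptosis regulators BID, which links death receptors to mitochondria, was at 9.87, 9.74 and 9.77 against 10.41, 10.35 and 10.12 (0.50 ± 0.16, log2, SE; adjusted p = 0.445). All SKOV-3-DD arrays were above the vector arrays for BID, the 1 of 20 measured regulators at an unadjusted p under 0.05 (7.79% of all probe sets).

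Of 47 measured replication-dependent histone genes 2 were higher and 1 lower at that p (3.49% and 4.29% of all probe sets), and the median of 0.02 turned to -0.01 with quantile normalization. H3C10 was at 7.43, 7.57 and 7.41 against 8.35, 7.84 and 7.92, without overlap. Metallothionein genes, whose products bind zinc and platinum, had lower means in 9 of 10 members of their list, and none passed an unadjusted p under 0.05 with all arrays. In MT1F, with 12.91, 12.97 and 12.91 against 12.45, 13.06 and 12.64, replicate 2 of SKOV-3-DD stood above the vector arrays and the other replicates below. The list medians differed from the vector mean by -0.16, 0.02 and -0.29 in SKOV-3-DD replicates 1 to 3, and by 0.01, 0.02 and -0.01 in the vector arrays. Replicate 2 was thus level with the vector arrays for the list. The median difference of the list was -0.16 for SKOV-3-DD and -0.27 for SKOV-3-AA. Collagen, laminin and integrin genes had lower means in 18 of 24 members, with a median of -0.15 with all arrays and of 0.00 without replicate 3.

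The interferon-response genes, which are induced by cytokines of antiviral defence, spread widely between the SKOV-3-DD arrays. The promoters of 3 of its genes are shown because these genes differed most between SKOV-3-DD replicates 3 and 2 among those with an interferon-stimulated response element, searched on both strands as GAAA, any 2 bases and GAAA again (TTTC on the other strand). The sequences run 5′ to 3′ on the strand of the gene from 250 bases before to 50 bases after the start of transcription, from RefSeq on GRCh38.p14, and capitals mark the matches, which overlap in IFIH1.
IFIT1, an inhibitor of viral translation, chr10:89392373-89392672, + strand: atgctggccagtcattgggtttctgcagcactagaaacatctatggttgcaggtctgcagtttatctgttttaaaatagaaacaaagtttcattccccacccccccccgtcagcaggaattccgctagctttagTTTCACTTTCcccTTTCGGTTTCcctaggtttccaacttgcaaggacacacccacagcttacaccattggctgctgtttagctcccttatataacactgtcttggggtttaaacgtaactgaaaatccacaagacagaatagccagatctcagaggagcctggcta
IFIH1, the RNA sensor MDA5, chr2:162318635-162318934, - strand: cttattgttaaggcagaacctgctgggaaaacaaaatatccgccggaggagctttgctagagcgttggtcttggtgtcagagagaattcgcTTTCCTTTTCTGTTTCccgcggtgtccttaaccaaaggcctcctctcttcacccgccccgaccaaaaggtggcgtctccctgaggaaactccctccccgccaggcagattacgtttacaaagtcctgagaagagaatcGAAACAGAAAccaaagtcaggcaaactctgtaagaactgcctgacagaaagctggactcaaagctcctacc
IFIT3, a partner of IFIT1, chr10:89327747-89328046, + strand: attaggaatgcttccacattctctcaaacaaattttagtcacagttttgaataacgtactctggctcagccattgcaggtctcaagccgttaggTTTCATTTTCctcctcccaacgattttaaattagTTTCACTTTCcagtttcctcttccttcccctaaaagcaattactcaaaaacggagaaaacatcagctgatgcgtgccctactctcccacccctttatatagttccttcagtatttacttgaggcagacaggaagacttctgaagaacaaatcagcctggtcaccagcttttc
The element was found in 17 of 27 list members with a promoter entry (63%) and in 1255 of all 35116 promoters (3.57%).

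IFIT1 had log2 signals of 5.68, 5.70 and 6.61 in SKOV-3-EV and of 5.97, 4.99 and 7.56 in SKOV-3-DD cells. IFIH1 was at 5.20, 5.60 and 6.19 against 5.00, 5.09 and 7.53, and IFIT3 at 7.71, 8.01 and 9.0003 against 8.09, 7.62 and 9.11. In each of these genes replicate 3 was the highest array of both groups, and in the differences from the vector, of 0.18 and 0.21 for IFIT1 and IFIH1, the SEs were 0.41 and 0.45. Among genes without the element in this window, OAS1, which makes the activator of RNase L, was at 5.82, 5.79 and 7.32 against 5.88, 5.66 and 8.13, and IRF9, the DNA-binding subunit of the interferon-activated factor ISGF3, at 6.87, 7.57 and 7.69 against 7.01, 6.48 and 8.58.

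**Figure D4:**
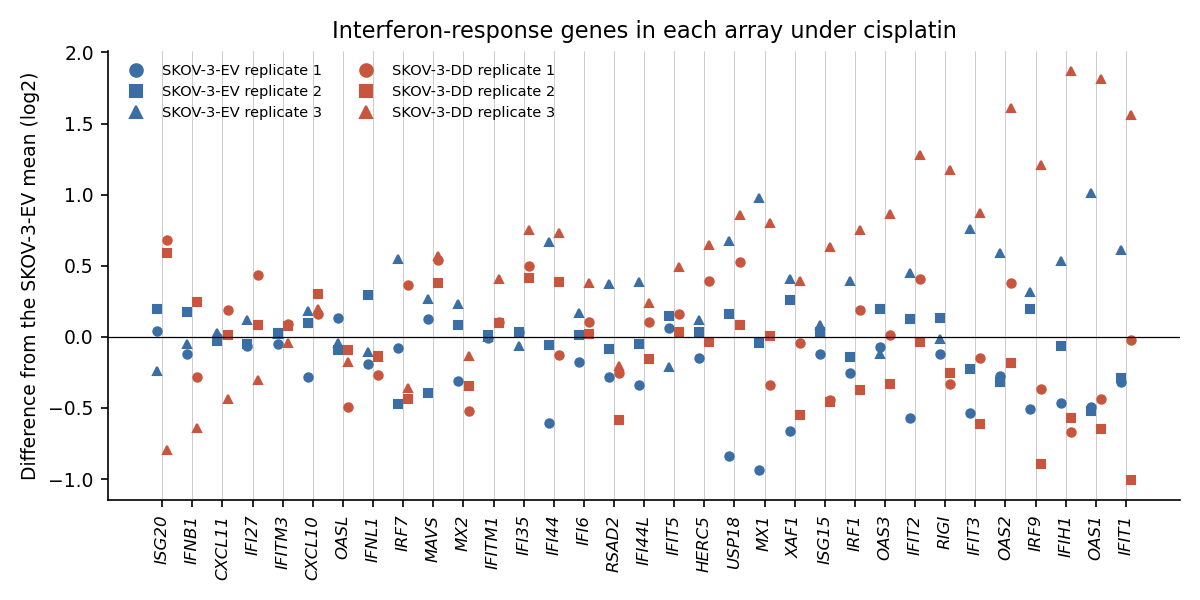
The log2 difference of each array from the mean of the 3 SKOV-3-EV arrays under cisplatin (y axis) is shown for the 33 measured interferon-response genes (x axis, in the order of the difference between SKOV-3-DD replicates 3 and 2), with SKOV-3-EV in blue, SKOV-3-DD in red and the shape giving the replicate. Replicate 3 of SKOV-3-DD lay above replicate 2 in 25 of the 33 genes.

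Of the 33 measured interferon-response genes 3 were higher and none lower at an unadjusted p under 0.05 (3.49% of all probe sets higher). IFI35, an interferon-induced leucine zipper protein, was at 7.80, 7.80 and 7.70 against 8.26, 8.18 and 8.52, a difference of 0.55 ± 0.13 (log2, SE; adjusted p = 0.277) without overlap. HERC5, the ligase that attaches ISG15, was at 9.27, 9.46 and 9.54 against 9.82, 9.39 and 10.07, and MAVS was the third. The list median differed from the vector mean by 0.09, -0.10 and 0.57 in SKOV-3-DD replicates 1 to 3 and by -0.19, 0.01 and 0.23 in the SKOV-3-EV arrays. The median of the list was 0.17 with all arrays, 0.25 without replicate 2 and -0.02 without replicate 3, and 9 genes were higher at an unadjusted p under 0.05 without replicate 2 (8.66% of all probe sets). ISG20, an interferon-induced exonuclease, ran against the list in replicate 3, with 7.67, 7.58 and 6.19 in SKOV-3-DD and 7.03, 7.19 and 6.75 in SKOV-3-EV cells.

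**Figure D5:**
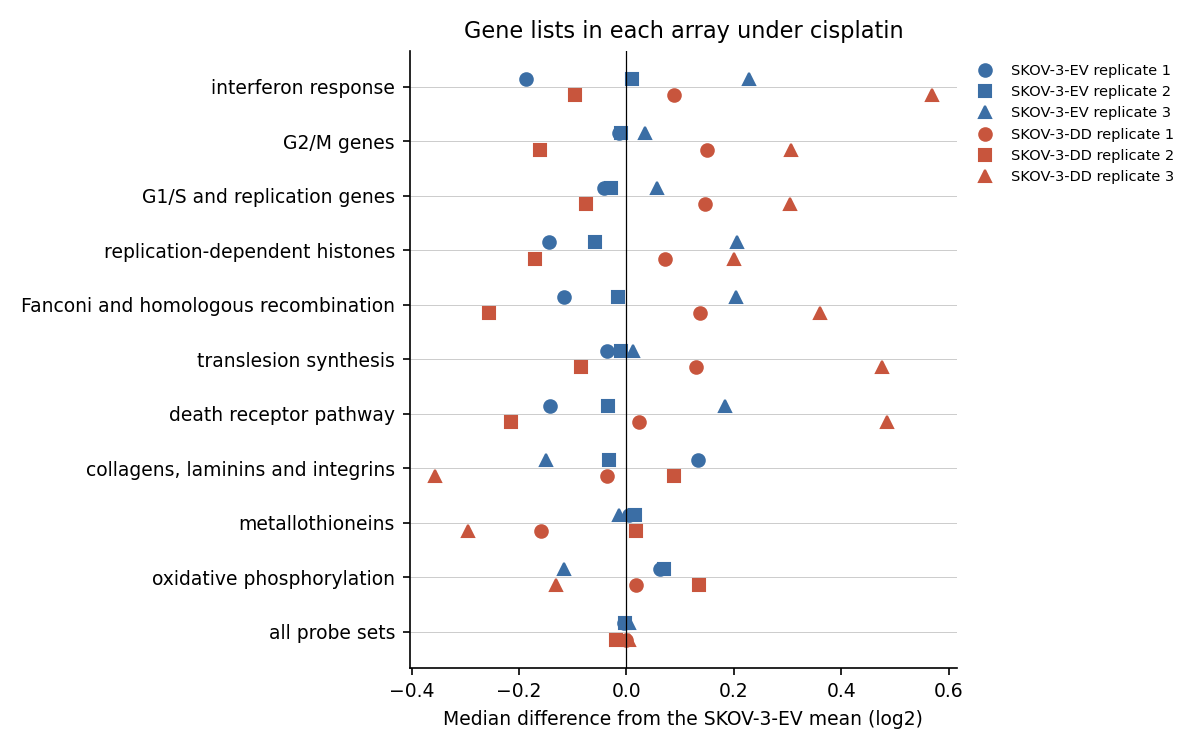
For each gene list (y axis) the median log2 difference from the mean of the SKOV-3-EV arrays under cisplatin (x axis) is plotted for every SKOV-3-EV (blue) and SKOV-3-DD array (red), with the shape giving the replicate. SKOV-3-DD replicate 3 was at 0.57 for the interferon list and at -0.36 for collagens, laminins and integrins, while replicate 2 was at -0.10 and 0.09.

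The SKOV-3-DD arrays also differed along the response to cisplatin, taken from the SKOV-3-AA arrays, which do not enter this comparison. For 1950 probe sets that were lower by 1 to 2 log2 units after cisplatin in SKOV-3-AA cells, the median difference from the vector mean was -0.01, -0.07 and 0.24 in SKOV-3-DD replicates 1 to 3. For 1244 probe sets that were higher by 1 to 2 it was 0.13, 0.03 and 0.01. The SKOV-3-EV arrays had medians of -0.03, -0.02 and 0.05 in the lower bin and of 0.04, -0.01 and -0.02 in the higher bin. By genomic span, genes of 37.3 to 86.8 kb had medians of 0.03, -0.07 and 0.13 in the SKOV-3-DD arrays, genes of up to 7.24 kb had -0.01, 0.02 and -0.09, and the longest genes, from 86.9 kb, had -0.05, -0.01 and 0.01. The medians of the difference between the group means were 0.02, -0.01 and -0.01, so the difference followed no order by span.

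Several genes of other lists had an unadjusted p under 0.05, as did 7.79% of all probe sets. TWIST2, a transcription factor of epithelial-mesenchymal transition, was at 6.26, 5.64 and 6.09 with the vector and at 6.92, 6.22 and 6.93 with PEA-15DD, and the tight junction gene CLDN4 at 5.09, 4.49 and 4.48 against 5.62, 4.64 and 5.48. In both, replicate 2 overlapped the vector arrays. HSPB8, a small heat shock protein gene, was lower, with 5.24, 5.25 and 5.53 against 4.50, 4.69 and 5.06. All signals of CLDN4 and HSPB8 were below 5.87, the lowest 90th percentile of the negative controls on these arrays. HSPA6, an inducible HSP70 gene, differed by -0.49 ± 0.18 (log2, SE). Their list went the other way, with higher means in 10 of 15 measured heat shock protein genes, lower means in 5 and a median of 0.05. CXCL3, a neutrophil chemokine gene, was at 7.79, 8.65 and 8.55 against 9.09, 8.76 and 8.80, without overlap (0.55 ± 0.21; adjusted p = 0.547). MMP3, of the same list of secreted inflammatory factors, was lower without overlap, at 4.64, 4.63 and 5.06 against 4.34, 4.31 and 4.43 (-0.42 ± 0.18). All signals of MMP3 were below 5.87. Of the 22 measured members of that list 11 had higher and 11 lower means. MYL9, a myosin light chain gene of contractile fibres, differed by -0.62 ± 0.23 and HSD17B7, an enzyme gene of cholesterol synthesis, by 0.63 ± 0.22.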

How the data were processed

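Per the methods, the authors summarised each probe set by SST-RMA and normalized the arrays to each other in Transcriptome Analysis Console 4.1, which gave the deposited log2 values used here unchanged. For the probe annotation no genome build is stated in the sources. Control features were left out, and symbols came from a platform table that named 17709 probe sets. FLNA, ERBB2 and the UGT1A genes were not matched to a symbol and were not analysed here.

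The fit used limma 3.58.1 (R 4.3.3), with 1 model and a mean per group (6 groups of 3 arrays), and p-values were adjusted by Benjamini and Hochberg over 21448 probe sets. The number of arrays limits the precision. A gene with several probe sets was taken by the highest mean. Tables and figures were made in Python 3.11.15 with matplotlib 3.10.9. The procedure was tested on simulated data in which every group had the same spread. That test could not check p-values under the wider spread of the SKOV-3-DD arrays under cisplatin. The table had 0 columns of other samples.

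The comparison, the 37 gene lists and the rules for naming genes were chosen with earlier results of these data known. Named were PEA15 and some genes named in the study, the 12 highest and 12 lowest differences, up to 4 members of each list in its direction and 2 against it, the 5 lowest p among new calls without each SKOV-3-DD array and the 10 largest SDs. For list members the largest differences were meant, but this was not followed throughout. DUSP4, DUSP6 and MAPK3 were described, while DUSP7, JUNB and RPS6KA3, with larger differences of 0.32, 0.25 and 0.23, were not. Alternatives were centring, quantile normalization, filters at the 25th percentile and median, trend and robust options, a replicate block, only the groups compared, 1 probe set per symbol, group averages by Tukey's biweight (constant 5), weights for arrays, and leaving arrays out.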

Additional observations from a re-analysis of the deposited data

Results flagged for a closer look

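In 3 of the named genes every SKOV-3-DD array lay on one side of the SKOV-3-EV arrays in untreated cells and on the other side under cisplatin. For SERPINB5 the difference of effects was 1.40 (log2; limma, adjusted p = 0.0648). For DENND4B it was 1.28 (adjusted p = 0.228), from a difference of -0.39 in untreated and 0.89 in treated cells, with log2 signals of 4.63, 4.61 and 5.05 against 4.59, 4.04 and 4.51 and of 4.13, 4.04 and 3.95 against 4.78, 4.86 and 5.15. For GNG7, a G protein subunit gene named for its low p, it was -1.17 (adjusted p = 0.228), from 0.47 and -0.71. None of these passed an adjusted p under 0.05, and all signals were below the 90th percentile of the negative controls. Among the 102 probe sets whose difference of effects passed the thresholds of the study, 99 had mean differences of opposite sign in untreated and treated cells. The 3 genes belong to these 102, so a change of sign was usual for genes with such a difference of effects. The share of all probe sets that reversed without overlap was not counted.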

How the results depend on the processing

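The 9 probe sets past the thresholds of the study became 1 when probe sets under the median were left out, 5 with 1 probe set per symbol, 38 with Tukey biweight averages, 26 with array weights and 77 without both SKOV-3-DD replicates 2 and 3, where the lone array was assumed to vary like the other groups. Leaving out single arrays gave 18 to 58. The biweight averages changed only the differences and kept the p of the main fit, so their count at an adjusted p could not change. Under the other alternatives with all arrays the count at an adjusted p under 0.05 was 0. It was 0 to 7 when single arrays were left out. The 1670 probe sets at an unadjusted p under 0.05 became 738 without those under the median, 767 with only the groups compared, and 1586 to 3259 when arrays were left out. For the difference of effects, 1 probe set, that of SERPINB5, passed an adjusted p under 0.05 without probe sets under the 25th percentile, with 1 probe set per symbol, with array weights and with the replicate block, and leaving out arrays gave 0 to 2, the second being MAP3K5 without SKOV-3-DD replicate 3. MRPL1 turned from -0.668 to 0.082 without both SKOV-3-DD replicates 2 and 3. Some of these settings use fewer probe sets or arrays, and the causes of the changes were not tested. Same-numbered SKOV-3-EV and SKOV-3-DD arrays had correlations of their deviations of 0.0363, 0.0401 and 0.132. Arrays with unlike numbers had values from -0.113 to 0.0907. Correlations this small do not settle whether the numbers pair the samples. The replicate block gave 9 and 1760 probe sets at the 2 thresholds. Of the 24 genes with the highest and lowest differences, which were chosen on all 6 arrays, 24 kept an unadjusted p under 0.05 without each single array, except 23 without SKOV-3-EV replicate 3, and 19 without both SKOV-3-DD arrays.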
